A study of Mus musculus with 3 samples.

Results

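A set of 10 genes of the bone marrow niche and of endothelium was examined for 5-hydroxymethylcytosine (5hmC), the oxidised form of 5-methylcytosine that TET enzymes make: Cxcl12, Kitl, Lepr, Tek, Emcn, Pecam1, Cdh5, Kdr, Angpt1 and Vcam1. The 10 genes are among 21779 protein-coding genes of the RefSeq table. A peak was counted for a gene when its midpoint lay in the gene's span or within 5 kb of it, and 85 of the 208468 distinct listed peaks met that rule. The genes were chosen by name, after earlier results of these data were known, so their counts are a description.

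Per the labels, the series holds 3 samples of mouse bone marrow cells. There is 1 sample of normal marrow (normal BM), and there are 2 of an acute myeloid leukaemia called NIDF-AML, induced by 4 mutant proteins: FLT3-ITD, NPMc, DNMT3A/R882H and IDH2/R140Q. The way the 4 mutants were introduced, and the strain, age and number of mice, are not stated in the labels. The 5hmC in sonicated DNA was tagged with a modified glucose, coupled to biotin, captured on avidin and sequenced. Analysis used the deposited lists of both leukaemia samples. A list for normal marrow was not analysed here.

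The 2 lists held the same 223267 lines and were counted as 1 list without replicates. In both file headers the treatment is index 4, and the control is index 5 in the first list and index 6 in the second. No source used here ties index 4 to a sample, so it may be normal marrow, and every count below belongs to the index 4 library alone. If the controls were 5hmC libraries too, listed peaks could be places with an excess over them. Leukaemia and normal marrow were not compared. Read depth is unknown and the lists carry no peak height, so a count of 0 means only that no peak was listed. In DNA of whole marrow, fewer cells with 5hmC at a gene and less 5hmC per cell cannot be told apart.

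The marrow niche is the tissue that houses blood stem cells. Its perivascular stromal cells, which carry the leptin receptor, make the chemokine Cxcl12 and the Kit ligand Kitl, and its sinusoids are lined by endothelium that displays Tek, Kdr, Cdh5, Pecam1 and Emcn. Blood cells read these signals through receptors such as Cxcr4, Kit and the integrin of Itga4 and Itgb1. In blood and other tissues 5hmC is known to lie mostly over the bodies of genes and near enhancers. The 10 genes were set in classes by textbook use in adult marrow. Pecam1 (platelets and leukocytes) and Vcam1 (marrow macrophages) are also used by mature blood cells. Tek, Emcn and Angpt1 are known from blood stem and progenitor cells, and Cxcl12, Kitl, Lepr, Cdh5 and Kdr mainly from stroma or endothelium.

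The start sites of the genes without a listed peak differed widely in CpG content, the dinucleotide that carries most cytosine methylation and therefore most 5hmC. RefSeq promoter windows of build GRCm38.p6, from 250 bases before to 50 after a start site, were matched for Cxcl12, Kitl, Lepr, Tek, Emcn and Kdr. Windows of 4 genes without a listed peak are shown 5′ to 3′ on the gene's strand, with each CpG (the letters CG, which read the same on both strands) in capitals, to set the CpG-rich starts of the 2 niche factors beside the CpG-poor starts of the 2 endothelial genes.
Cxcl12 (chr6:117168285-117168584, plus strand): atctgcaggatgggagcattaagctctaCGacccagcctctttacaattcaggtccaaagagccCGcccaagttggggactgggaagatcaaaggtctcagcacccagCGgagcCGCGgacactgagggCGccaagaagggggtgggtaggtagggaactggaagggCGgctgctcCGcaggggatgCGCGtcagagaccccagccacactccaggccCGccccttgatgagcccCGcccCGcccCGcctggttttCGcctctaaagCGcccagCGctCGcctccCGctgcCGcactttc
Kitl (chr10:100015571-100015870, plus strand): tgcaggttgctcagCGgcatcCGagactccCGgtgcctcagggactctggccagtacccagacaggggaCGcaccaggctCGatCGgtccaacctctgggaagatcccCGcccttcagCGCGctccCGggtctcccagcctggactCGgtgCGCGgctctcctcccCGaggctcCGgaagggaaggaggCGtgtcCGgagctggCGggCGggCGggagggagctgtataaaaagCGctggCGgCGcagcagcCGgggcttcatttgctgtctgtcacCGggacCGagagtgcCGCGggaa
Tek (chr4:94739039-94739338, plus strand): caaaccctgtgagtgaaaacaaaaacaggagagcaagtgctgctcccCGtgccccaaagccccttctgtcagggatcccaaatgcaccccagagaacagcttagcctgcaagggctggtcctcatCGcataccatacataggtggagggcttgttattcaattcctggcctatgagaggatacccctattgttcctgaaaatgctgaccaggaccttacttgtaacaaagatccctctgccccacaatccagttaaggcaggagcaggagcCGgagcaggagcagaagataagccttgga
Emcn (chr3:137340828-137341127, plus strand): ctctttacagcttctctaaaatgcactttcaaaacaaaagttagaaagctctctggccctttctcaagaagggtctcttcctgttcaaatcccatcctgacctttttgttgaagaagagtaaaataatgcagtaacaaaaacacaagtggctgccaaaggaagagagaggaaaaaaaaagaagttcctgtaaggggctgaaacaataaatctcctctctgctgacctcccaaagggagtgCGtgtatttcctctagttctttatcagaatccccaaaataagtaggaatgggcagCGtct
Kitl had 28 CpG in its window and Cxcl12 20, while Tek had 3 and Emcn 2. The contrast holds for these 4 windows and not for the cell types, since the endothelial gene Kdr had 19, beside the 20 of Cxcl12. The median over 21263 windows of protein-coding genes was 13, and 95.4% of all windows held at least 1 CpG. None of the 7 windows of the 6 matched genes (Lepr has 2, with 18 and 13 CpG, and Kdr has 19) held a peak midpoint, against 3.61% of all windows, so a window without a peak was the rule. Over all windows the share with a peak midpoint was 2.87% (Wilson interval 2.47 to 3.32%) at up to 4 CpG and 10.1% (9.09 to 11.2%) at 5 to 9 CpG. It was 4.65% (4.07 to 5.32%) at 10 to 19 CpG and 0.903% (0.714 to 1.14%) at 20 or more.

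Of the 10 genes, 5 had a listed peak and 5 had none, a share of 50% against a background of 73.1% of protein-coding genes with a peak within 5 kb. The same 5 had a peak in the span itself, against 66.6% of protein-coding genes. The difference depended on the width: with 20 kb in place of 5 kb, 8 of the 10 genes had a peak, against 79.4% of protein-coding genes. Pecam1 had 50 peaks, Cdh5 15, Kdr 9, Vcam1 7 and Angpt1 4, while the other 5 (Cxcl12, Emcn, Kitl, Lepr and Tek) had 0. Pecam1 thus held 58.8% of the 85 peaks, and the other 9 genes held 35. The median over the 10 genes was 2 peaks, against 4 over all protein-coding genes, and the median density was 0.00762 peaks per kb of span and flanks against 0.106. No test was made, since there is 1 list and genes are not replicates.

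**Figure D1:**
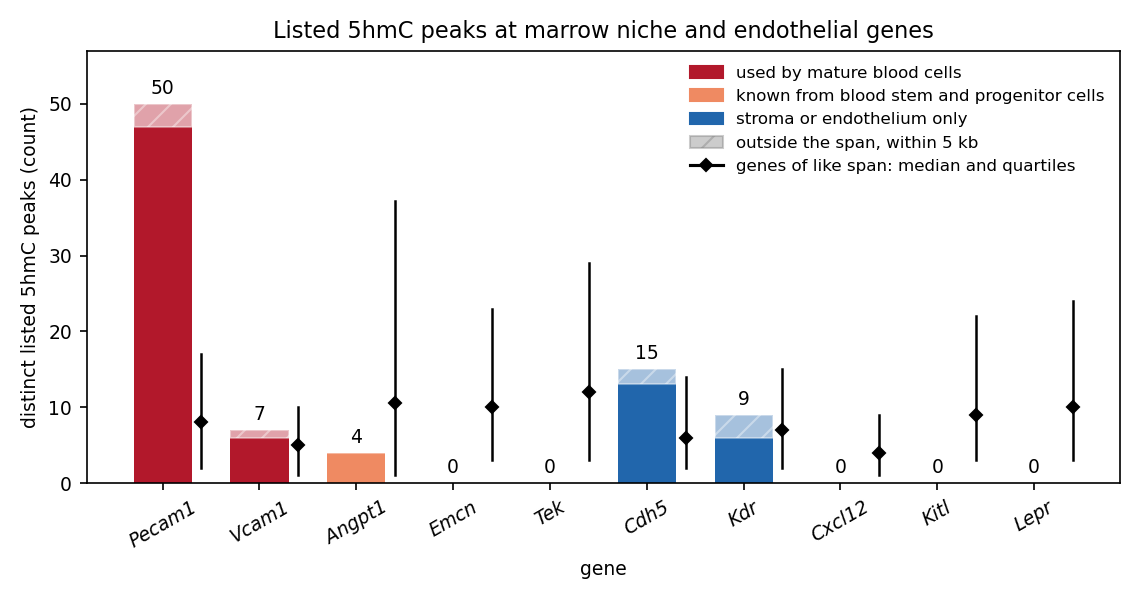
Distinct listed 5hmC peaks (vertical axis, count) at each of the 10 genes (horizontal axis), with peaks in the span solid and those within 5 kb outside it hatched. Black diamonds and lines give the median and quartiles of protein-coding genes whose span is within 1.5 times that of the gene, and colours give the class. Pecam1 at 50 stands far above its like-span median of 8, and 5 genes are at 0.

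All 5 genes without a peak were of spans at which most genes had one. Among genes whose span is within 1.5 times that of Cxcl12, 79.6% had a peak within 5 kb, and the shares were 88.4% for Kitl, 88.9% for Lepr, 87.8% for Tek and 88.5% for Emcn. Genes without a peak were therefore a minority at every one of these spans, though not a rare one: 20.4% for Cxcl12 and 11.1% for Lepr. Like-span genes had a median of 4 peaks for Cxcl12, 9 for Kitl, 10 for Lepr and Emcn and 12 for Tek.

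Pecam1 encodes the adhesion molecule CD31, which joins endothelial cells and is also carried by platelets and most leukocytes. It spans 61.1 kb on chromosome 11 (106654213 to 106715281, mm10) and held 47 peaks in the span and 3 outside it, or 50 in all (exact Poisson interval 37.1 to 65.9). Only 2.56% of its 3198 like-span genes had more. By count it ranked 473rd of the 21779 genes, and 3.5% of genes had more peaks per kb than its 0.704 per kb of span and flanks. Peaks ran along the whole gene, from 0.907 to 61 kb from the lower-coordinate end, with a median spacing of 0.976 kb and no peak-free stretch in the span longer than 4.61 kb. Cut into 3 equal parts by rising coordinate, the span held 21, 11 and 15 peaks.

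Vcam1, the adhesion molecule that holds blood stem cells through the integrin of Itga4 and Itgb1, spans 19.7 kb on chromosome 3 (116110020 to 116129688). It had 6 peaks in the span and 1 outside it, or 7 in all (exact Poisson interval 2.81 to 14.4), near the like-span median of 5. The first 9.46 kb of the span by coordinate held no peak. All 6 peaks in the span lay from 9.46 to 18.6 kb, starting with the interval from 116119424 to 116119536, and the other lay 3.79 kb past the higher-coordinate end.

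Angpt1, the angiopoietin that activates Tek, spans 252 kb on chromosome 15 (42424667 to 42676977), the longest of the 10 genes. It had 4 peaks (exact Poisson interval 1.09 to 10.2), against a like-span median of 10.5. They lay 25.2, 34.9, 77.1 and 227 kb from the lower-coordinate end, and a stretch of 150 kb between the last pair held none. The peak nearest the higher-coordinate end was 169 bp wide, the widest of the 85. Tek, the receptor of angiopoietins on endothelium and blood stem cells, spans 136 kb on chromosome 4 (94739086 to 94874976) and had 0 peaks. Emcn, a sialomucin of venous and sinusoidal endothelium, spans 90 kb on chromosome 3 (137341062 to 137431069) and also had 0.

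Cdh5, the cadherin of endothelial junctions, spans 42.9 kb on chromosome 8 (104101613 to 104144504). It had 13 peaks in the span and 2 outside it, or 15 in all (exact Poisson interval 8.40 to 24.7), against a like-span median of 6, and 22.4% of like-span genes had more. The peaks fell in separate runs: 3 lay from 9 to 9.92 kb from the lower-coordinate end, the next 13.8 kb held none, and 10 lay from 23.7 to 42.3 kb. Of the 2 outside the span, 1 lay 1.56 kb before the lower end and 1 lay 0.264 kb past the higher end.

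Kdr, the main receptor for vascular endothelial growth factor on endothelium, spans 46.2 kb on chromosome 5 (75932827 to 75979072), on the minus strand. It had 6 peaks in the span and 3 outside it, or 9 in all (exact Poisson interval 4.12 to 17.1), against a like-span median of 7. Along the strand, 2 peaks lay before the start site, at 2.26 and 3.585 kb upstream. Inside the gene 2 lay 7.89 and 15.9 kb downstream of the start, and the next 22.5 kb held none. The other 5 lay from 38.4 to 45.8 kb downstream, at the far end of the gene, and the last of them was 0.123 kb past that end.

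Cxcl12, Kitl and Lepr, genes of the stromal cells that support stem cells, had no listed peak. The exact Poisson interval was 0 to 3.69 for each, as for Tek and Emcn. Cxcl12, the chemokine that retains stem cells in marrow, spans 12.8 kb on chromosome 6 (117168535 to 117181368). Kitl, the ligand that sustains stem cells and mast cells, spans 84.8 kb on chromosome 10 (100015615 to 100100416). Lepr, the leptin receptor that marks perivascular stroma, spans 98.2 kb on chromosome 4 (101717137 to 101815352).

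**Figure D2:**
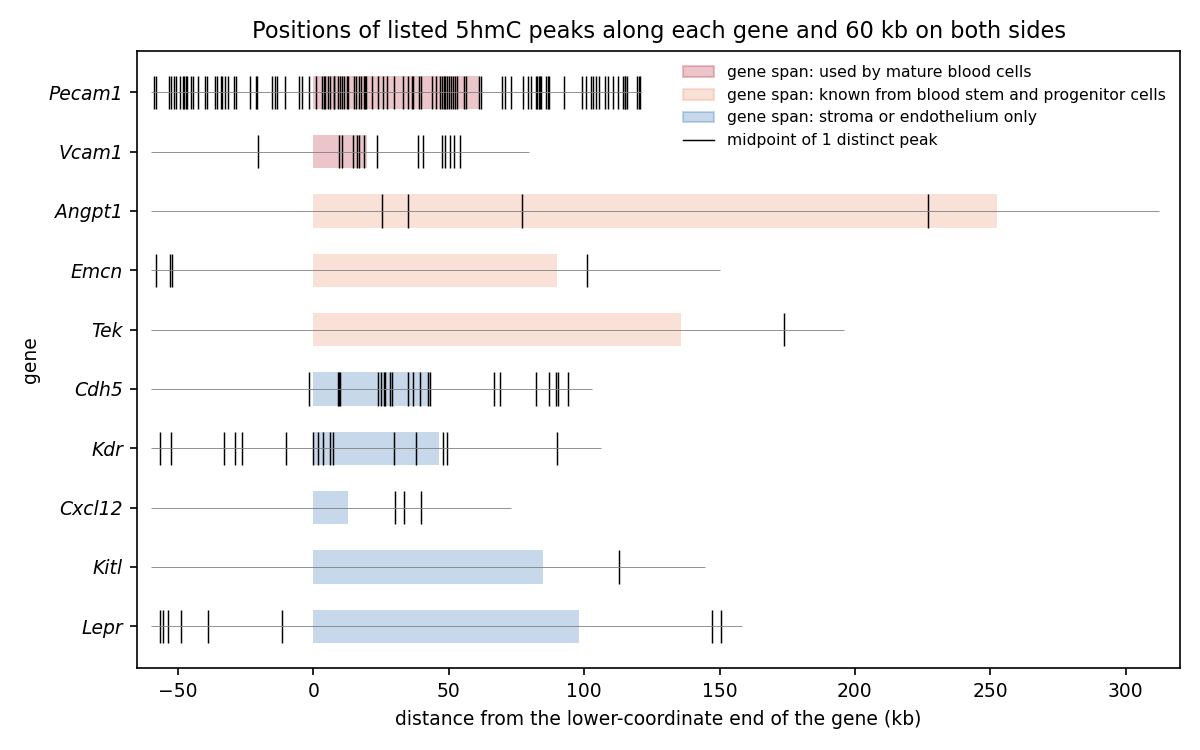
Midpoints of distinct listed peaks (black lines) along each gene and 60 kb on both sides, by distance from the lower-coordinate end of the gene in kb (horizontal axis), with 1 row per gene and the span shaded by class. Peaks run through Pecam1 and on past both ends, lie in runs in Cdh5, Vcam1 and Kdr, and are absent from the spans of Emcn, Tek, Cxcl12, Kitl and Lepr.

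The 5 genes without a peak lay in long stretches without one. Part of that length is fixed by the counting rule, since each stretch must cover about the gene's span and 5 kb on both sides. The spans are 84.8 kb for Kitl, 12.8 kb for Cxcl12, 136 kb for Tek, 98.2 kb for Lepr and 90 kb for Emcn. The stretch around Kitl ran 461 kb from peak to peak, that around Cxcl12 424 kb, Tek 311 kb, Lepr 159 kb and Emcn 153 kb. Adjacent peaks on the autosomes were a median of 1.90 kb apart, a spacing that the rule excludes around these genes. Stretches at least as long as that of Kitl numbered 840 on the autosomes and made up 31.8% of the length between peaks, and those as long as that of Emcn made up 49.1%. Long stretches of this kind therefore cover much of the genome, and assembly gaps were not removed from them.

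For each of these genes the nearest listed peak was closer on one side than on the other. It was 17.4 kb past the higher-coordinate end of Cxcl12, with the nearest on the other side 393 kb away, and 27.9 kb past that end of Kitl, with 348 kb on the other side. These genes are on the plus strand, so the nearer peak was downstream. The distances were 37.9 kb downstream and 137 kb upstream for Tek, and 11.2 kb downstream and 52.3 kb upstream for Emcn. For Lepr the nearer peak was upstream, at 11.6 kb, and the downstream one was 49.1 kb away. At the 5 kb limit itself, the farthest peak inside was 4.21 kb from Pecam1, followed by 3.79 kb from Vcam1, and the closest outside was 5.29 kb from Pecam1, followed by 9.995 kb from Kdr.

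Peak density in the 500 kb on both sides also differed among the genes. Pecam1 had 332 peaks in those flanks, more than 91.7% of protein-coding genes, Vcam1 205 and Kdr 174, where the median gene had 126. The flanks of the other 7 were below that median, with 97 for Cdh5, 92 for Lepr, 79 for Tek, 78 for Emcn, 52 for Cxcl12, 27 for Kitl and 5 for Angpt1. Per kb, the span of Cdh5 held 3.12 times the density of its flanks (exact interval for a ratio of Poisson rates 1.61 to 5.60) and that of Pecam1 2.32 times (1.67 to 3.15). The ratios were 1.49 for Vcam1 (0.540 to 3.29), 0.746 for Kdr (0.270 to 1.66) and 3.17 for Angpt1 (0.629 to 14.7), and these 3 intervals include equal densities. All intervals are at the 95% level, assume independent peaks, and reflect counting error alone. Ratios for other protein-coding genes are not given, so whether those of Cdh5 and Pecam1 are unusual was not tested. A count of 0 has an exact Poisson interval of 0 to 3.69. The 0 of Cxcl12, at 12.8 kb with flanks at 0.052 per kb, therefore says less than that of Lepr, at 98.2 kb and 0.092. Kitl, at 84.8 kb, had the sparsest flanks of the 5 genes at 0, with 0.027 per kb. The part of regional density in the counts was not tested.

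**Figure D3:**
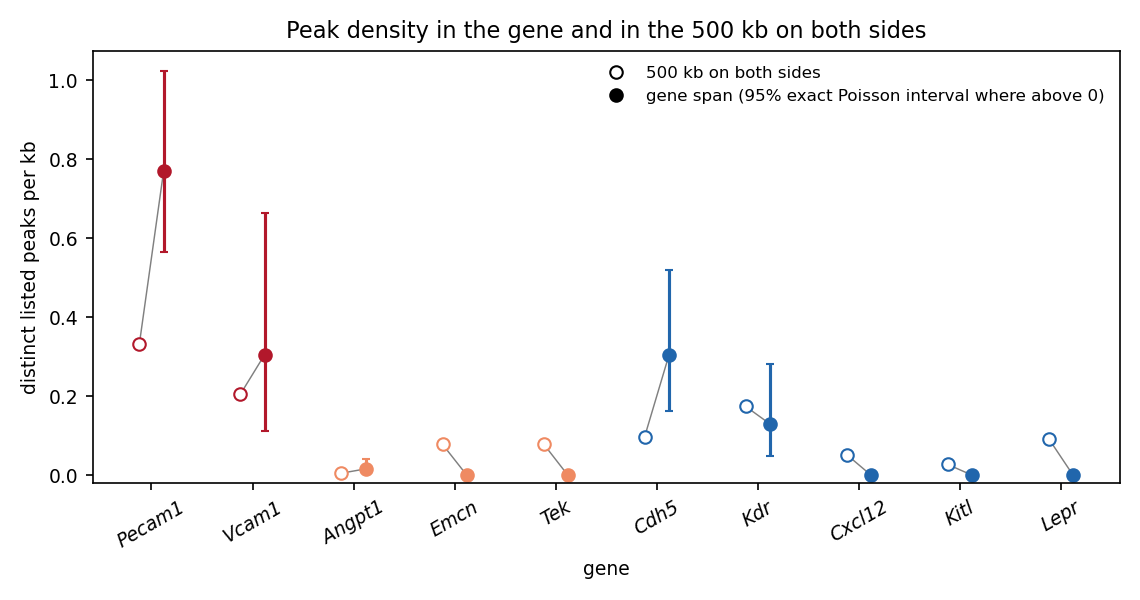
Distinct listed peaks per kb (vertical axis) in the span of each gene (filled points, with 95% exact Poisson intervals where the count is above 0) and in the 500 kb on both sides (open points), coloured by class. The span lies above the flanks at Pecam1 and Cdh5 by more than the interval, and the spans of 5 genes are at 0 while their flanks are between 0.027 and 0.092. At those 5 no interval is drawn, though that of a count of 0 reaches 3.69 peaks.

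Set by class, the 2 genes used by mature blood cells both had peaks, 57 in all (exact Poisson interval 43.2 to 73.9) over 101 kb of span and flanks, or 0.566 per kb. Of the 3 genes known from stem and progenitor cells 1 had peaks, 4 in all (1.09 to 10.2) over 508 kb, or 0.00787 per kb. Of the 5 genes known mainly from stroma or endothelium 2 had peaks, 24 in all (15.4 to 35.7) over 335 kb, or 0.0716 per kb. Over all protein-coding genes 73.1% had a peak, and over genes of spans like the 10 the mean share was 85.4%. Within 5 kb both classes without mature blood use had a lower share, and the remaining class holds 2 genes only. These lower shares depended on the width. With 20 kb, Cxcl12 and Lepr of the third class and Emcn of the second also had 1 peak each. Kitl alone of the third class and Tek alone of the second then had none, against a background of 79.4% of protein-coding genes with a peak. The class densities pool peaks and kb, so long genes weigh most. They are therefore a different measure from the median of 0.106 per kb over single protein-coding genes. The contrast between genes used by blood cells and the others rests on how the middle class is placed and on Pecam1. With the middle class counted as used by blood, 3 of 5 genes had a peak and the density was 0.1 per kb, and without Pecam1 it was 0.0205 per kb. The classes hold 2 to 5 genes and overlap: per kb of span and flanks Cdh5, of the third class, had 0.284, above the 0.236 of Vcam1, of the first, and Kdr had 0.160. Cxcl12, Kitl and Lepr, introduced above with the stromal cells, were at 0, while the 5 endothelial genes ran from 0 at Tek and Emcn to 50 at Pecam1. Vcam1 and Angpt1, placed in neither of these sets, had 7 and 4, so the zeros need not hold for every gene that stromal cells use.

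Genes for the binding partners of the 10 all carried listed peaks. Of 22 ligands, receptors and cofactors, 22 had a peak within 5 kb (100%, background 73.1%) and 21 had one in the span, with a median of 12 peaks (range 1 to 40) against 4 over all protein-coding genes. Several were known from earlier results of these data when the list was set, so the count is a description. The background was not matched to the spans of the 22 genes. Among genes of spans like the 10, the mean share with a peak was 85.4%.

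The receptor genes of Kitl and Cxcl12 had peaks where the ligand genes had none, while Itga4, Itgb1 and Cd38 had fewer than Vcam1 or Pecam1, which they bind. Kit, the receptor of Kitl on stem and mast cells, had 38 peaks (exact Poisson interval 26.9 to 52.2), all in its span. Cxcr4, the receptor of Cxcl12, had 9 (4.12 to 17.1) in 4.10 kb of span and its flanks, none of them in the span. Ackr3, a second receptor that clears Cxcl12, had 2, and Dpp4, a peptidase that trims Cxcl12, had 11. Itga4 and Itgb1, the integrin chains that bind Vcam1, had 6 and 2 beside the 7 of Vcam1. Itgb7, which pairs with Itga4 in gut homing, had 16. Cd38, a surface enzyme of lymphocytes described as a partner of Pecam1, had 21 beside the 50 of Pecam1.

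The vascular partners showed a wide range. Flt1, a receptor for vascular endothelial growth factor also found on monocytes, had 40 peaks over 165 kb, and Flt4, its lymphatic relative, had 4. The coreceptor genes Nrp2 and Nrp1 had 28 and 18. Among ligands Vegfa had 20, Vegfb 4 and Vegfc 2. Per kb of span and flanks Vegfa had 0.788, above the 0.704 of Pecam1, while Vegfc had 0.0168. Around Tek, Angpt2, the antagonist of Angpt1, had 17, Tie1, the coreceptor, had 2 and Ptprb, the phosphatase that restrains Tek, had 1. The catenin genes whose products bind the tail of Cdh5 had 22 (Ctnnb1), 18 (Jup) and 13 (Ctnnd1).

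**Figure D4:**
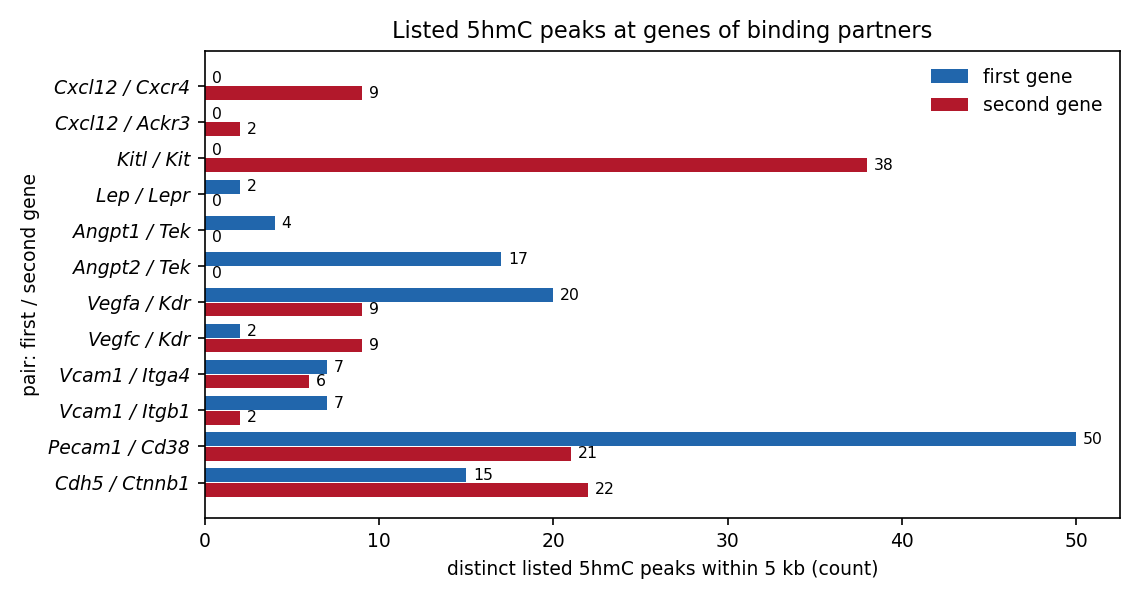
Distinct listed peaks within 5 kb (horizontal axis, count) for 12 pairs of genes whose products bind each other, with the first gene of each pair in blue and the second in red. The ligand genes Cxcl12 and Kitl are at 0 beside 9 at Cxcr4 and 38 at Kit. The receptor gene Tek is at 0 beside 4 at Angpt1 and 17 at Angpt2, and Lepr is at 0 beside 2 at Lep.

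Lep, the gene of leptin, gave a case of a peak on a start site. It had 2 peaks within 5 kb, and 1 of them, from 29060096 to 29060204 on chromosome 6, had its midpoint 71 bp before the start site. The RefSeq window (GRCm38.p6) is shown with the bases under the peak in capitals, as a window of 19 CpG to set beside the 20 of Cxcl12, which had no peak.
Lep (chr6:29059971-29060270, plus strand): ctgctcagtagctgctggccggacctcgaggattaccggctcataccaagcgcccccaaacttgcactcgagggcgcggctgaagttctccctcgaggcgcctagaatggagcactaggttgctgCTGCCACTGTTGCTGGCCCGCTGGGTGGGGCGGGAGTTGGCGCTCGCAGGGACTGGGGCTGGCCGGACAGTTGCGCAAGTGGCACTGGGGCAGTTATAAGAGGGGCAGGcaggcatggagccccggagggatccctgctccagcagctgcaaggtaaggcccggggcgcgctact
The 109 bp under the peak hold 6 of the 19 CpG of the window. The windows of Ctnnd1 and Vegfa also held a peak midpoint, 79 bp before and 47 bp after a start site, with 30 and 10 CpG. Captured fragments are longer than a listed peak, so the CpG that carried 5hmC need not lie under it.

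Kdr lies in a row of 3 related receptor tyrosine kinase genes on chromosome 5 that are used by different cells of the marrow: Pdgfra by stroma, Kit by blood stem and mast cells and Kdr by endothelium. Pdgfra held 4 peaks in its span (exact Poisson interval 1.09 to 10.2), Kit 38 (26.9 to 52.2) and Kdr 6 (2.20 to 13.1). Per kb of span these are 0.0853, 0.465 and 0.130. The 377 kb between Pdgfra and Kit held 61 peaks, or 0.162 per kb, and the 276 kb between Kit and Kdr held 63, or 0.228 per kb. Per kb the intervals were 0.0232 to 0.218 for Pdgfra, 0.329 to 0.638 for Kit and 0.0476 to 0.282 for Kdr, so Pdgfra and Kdr overlap each other and both lie below Kit. Both of those intervals also include the density of the sequence between the gene and Kit.

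**Figure D5:**
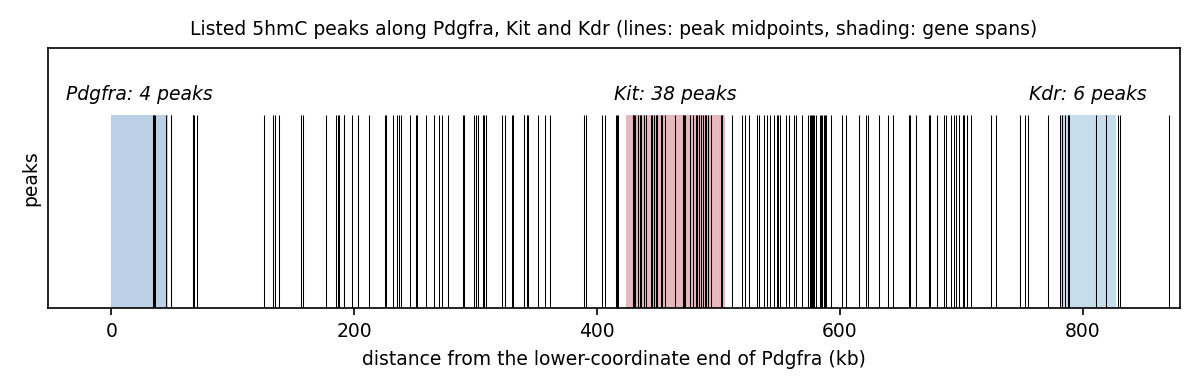
Midpoints of listed peaks (black lines) along chromosome 5 from Pdgfra to Kdr, by distance in kb from the lower-coordinate end of Pdgfra (horizontal axis), with gene spans shaded. Lines crowd in and around Kit with 38 peaks and are sparse in Pdgfra with 4 and Kdr with 6.

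Other genes of the same cell types were read from lists of endothelial and of stromal genes, which share 3 genes (Eng, Jag1 and Mcam). Of 33 endothelial genes 30 had a peak (90.9%, background 73.1%, not matched for span), with a median of 8. The most were at Erg (92), Ets1 (91) and Fli1 (89), ETS transcription factors that blood cells also use, and at Stab1 (33), a scavenger receptor of sinusoids and macrophages. Those with none were Cd34, the stem cell and endothelial sialomucin, Sox7 and Sox17. Of 34 stromal genes 26 had a peak (76.5%, near the background), with a median of 3.5. The most were at Runx2 (96), the bone factor, Ebf1 (56), which B cells also need, Tgfb1 (25), which many blood cells make, and Pdgfrb (24). The longest with none were Ebf3 (129 kb), the Ebf gene of niche stroma, Ptn (95.3 kb), Il7 (41.7 kb) and Col3a1 (38.2 kb).

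Marker genes were checked for the labelled tissue. All 8 blood markers (Ptprc, Spi1, Csf1r, Lyz2, Mpo, Elane, Cd79a and Itgam) had peaks (background 73.1%), from 11 to 34 with a median of 16. Of 6 endothelial markers 5 had peaks (range 0 to 15, median 2, Emcn at 0), and of 7 stromal markers 5 had peaks (range 0 to 24, median 6, Cxcl12 and Lepr at 0), a share of 71.4% near the background. Cdh5, Kdr, Emcn, Cxcl12 and Lepr are among the 10 genes themselves, so these marker counts partly repeat the values above. The lists measure 5hmC and not expression, and the part that the mix of cells had in the counts was not tested.

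The 85 peaks resembled the others in the list in width, with a median of 65 bp (range 17 to 169 bp) against 65 bp over all peaks. None of them was on a repeated line, whereas 6.63% of all lines repeat an earlier one. Starts and ends in the lists are rounded to values that single precision can hold, so positions and widths on most of these chromosomes are coarse by several bases or more.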

How the data were processed

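The authors captured 5hmC by glucosylation and biotin, per the labels' protocols, and called peaks with PICS, per the file headers, with a read length of 99 bp, fragments of 200 bp, windows of 250 bp, at least 3 reads in a window and at least 10 in a region. The build, mm10, is from the submitters' processing notes. The aligner and score cutoff are not given in the sources used here. Lists as deposited give a chromosome, a start and an end, with no score. Starts were read as counted from 0 and are given counted from 1.

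Each distinct interval was counted once. Genes were spans of the RefSeq table of GRCm38.p6 (models starting below 3 Mb, except on Y, were left out), which has no exons, so exons, introns and UTRs were not assigned. All 10 genes, and all genes of the lists, were found by symbol. Counting used Python 3.11.15, pandas 2.3.3 and SciPy 1.17.1, and was tested on simulated data. The members, classes and lists were chosen with earlier results of these data known. Named genes were the 10, all partner genes and, in the other lists, the 4 with the most peaks and the 4 longest without one. Pdgfra, as a neighbour of Kit, the markers, Icam2 and the neighbouring genes were named outside that rule, after their values were seen. No test between groups was possible with 1 list. The neighbours of Vcam1 are not reported here.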

Additional observations from a re-analysis of the deposited data

How the results depend on the processing

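The counts were repeated with repeated lines kept, with the span alone, with 2 kb or 20 kb in place of 5 kb, with any overlapping base in place of the midpoint, and without each replicate. With 20 kb, 8 of the 10 genes had a peak in place of 5, with 1 each at Cxcl12, Lepr and Emcn and none at Kitl and Tek. The share of the 10 genes with a peak minus that of all protein-coding genes was then 0.584 percentage points in place of -23.1, so the direction reversed at that width. Against genes of like span within 5 kb it was -35.4. With the span alone it was -16.6. Over the settings that changed the counting, the peaks at the 10 genes ran from 76 to 101, and the genes with a peak from 21 to 22 among partners, 28 to 32 among endothelial and 22 to 28 among stromal genes. Leaving out either replicate gave 5 genes and 85 peaks again, because the lists are identical, and says nothing about stability. A stricter score cutoff was not run, since the lists have no score. No paired analysis was possible because the 2 lists are identical and no list of normal marrow was used.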

Other observations

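The nearest protein-coding neighbours on both sides of 9 of the genes, taken by position, differed widely in listed peaks within 5 kb. Pecam1 lies between Tex2, with 75 peaks, and Milr1, a receptor gene of mast cells, with 16. Emcn has Ppp3ca, a catalytic subunit of calcineurin, 403 kb below it with 91 peaks, and Gm4861 118 kb above it with 1. Lepr has Leprot 57.8 kb below it with 8 and Pramel17 19.6 kb above it with 0. Cdh5 has Cdh11, another cadherin gene, 1316 kb below it with 1 and Bean1 25.9 kb above it with 11. Kdr has Kit with 38 below it and Srd5a3 with 15 above it. Cxcl12 has Tmem72 with 8 and Zfp637 with 2, 452 and 659 kb away. Tek has Ift74 with 2 below it and Eqtn, 0.72 kb above it, with 1. Angpt1 lies between Abra and Rspo2, with 0 each, and Kitl between Csl and Gm4301, with 0 each.

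Icam2 is another adhesion gene of endothelium and leukocytes and a member of the endothelial list. It lies on chromosome 11 from 106377656 to 106388139, within the 500 kb flank below Pecam1, so its peaks are part of that flank's count. It had 17 peaks in 10.5 kb of span and its flanks, or 0.830 per kb. It was chosen after its value was seen.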
